A study of Mus musculus with 3 samples.

Results

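The 10 genes of the mouse MHC class II system, H2-Aa, H2-Ab1, H2-Eb1, Cd74, H2-DMa, H2-DMb1, H2-DMb2, H2-Oa, H2-Ob and Ciita, were followed among 31053 measured genes in 3 libraries of sorted CD8 T cells. They were chosen with their values in these libraries known, to set RNA of T cells apart from RNA of B or myeloid cells. The libraries were TdLN, from the lymph node draining a B16.Gp melanoma, PBMC, from blood of such tumour-bearing mice, and memory, taken 200 days after acute infection with lymphocytic choriomeningitis virus (LCMV). B16.Gp is the B16.F10 melanoma line made to express the LCMV glycoprotein, and P14 cells carry a transgenic receptor for its GP33 peptide. Hosts were C57BL/6 mice, labelled WT. For TdLN and PBMC, naive P14 cells (CD44-, GFP+) that carried a TCF-1-GFP reporter were transferred 8 days after the tumour, and P14 cells were collected 16 days later. The sort took CD8 T cells positive for CD45.1 and CD44 in TdLN and PBMC, and in memory those that were also KLRG1-, CD127+ and CD62L+. Neither the source tissue of memory nor how many mice went into a library is given in the sources used here, and tumour-infiltrating cells named in the design were not analysed here. With 1 library for each group, differences between groups carry no test. TdLN and PBMC shared collection day and gate, but tissue and library preparation changed together between them and cannot be told apart. Against memory, tumour or infection, collection day, gate and library preparation changed together and cannot be told apart either.

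MHC class II molecules show peptides from taken-up protein to CD4 T cells and are made mainly by B cells, dendritic cells and macrophages. H2-Aa and H2-Ab1 encode the chains of I-A, and H2-Eb1 the beta chain of I-E. Cd74 encodes the invariant chain, which holds the groove until it is cut away. H2-DM, made of H2-DMa with H2-DMb1 or H2-DMb2, loads and edits peptides, and H2-O, made of H2-Oa and H2-Ob, inhibits H2-DM. Ciita encodes the master coactivator of the family, which is drawn to promoters by factors bound to their X box (the RFX complex) and Y box (NF-Y). Activated human T cells make class II molecules, whereas mouse T cells are known for making little or none.

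Promoter stretches of members with RNA in these T cells (H2-Oa, H2-Ob, H2-DMa) and of members near background there (H2-Aa, H2-Eb1, H2-DMb2) are shown because the T cell pattern below splits genes that share promoter elements. They are from RefSeq on GRCm38.p6 and read 5′ to 3′ on the strand of the gene. Capitals mark GNAAC, a short form of the X box core, where ATTGG follows on that strand with starts 25 to 45 bases apart, and that ATTGG, the Y box core. In H2-DMb2 the ATTGG alone is in capitals, and in H2-DMa nothing is.
H2-Oa (chr17:34092283-34092350, plus strand): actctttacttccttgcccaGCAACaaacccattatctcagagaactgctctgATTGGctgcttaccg
H2-Ob (chr17:34238798-34238862, plus strand): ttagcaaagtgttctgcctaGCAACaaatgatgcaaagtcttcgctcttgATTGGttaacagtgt
H2-DMa (chr17:34122722-34122821, plus strand): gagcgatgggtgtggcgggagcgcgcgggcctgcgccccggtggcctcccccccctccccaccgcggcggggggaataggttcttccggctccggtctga
H2-Aa (chr17:34287857-34287924, minus strand): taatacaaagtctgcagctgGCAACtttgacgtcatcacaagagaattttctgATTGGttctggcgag
H2-Eb1 (chr17:34305756-34305822, plus strand): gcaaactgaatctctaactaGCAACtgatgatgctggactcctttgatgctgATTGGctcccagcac
H2-DMb2 (chr17:34145104-34145173, plus strand): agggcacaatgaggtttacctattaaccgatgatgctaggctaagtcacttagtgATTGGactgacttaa

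Of the 10 members, 7 were matched to RefSeq promoters by symbol, in 8 windows of 300 bases (250 before a start and 50 after it), with 2 windows for H2-DMa. H2-Ab1, Cd74 and Ciita were not. ATTGG was found on either strand in 7 of the 8 windows, against 37.4% of 32851 promoters of the same length. The longer core AGNNACNGA was in 4 of the 8, against 17.7% of promoters, and it was followed by ATTGG at the set spacing in 2 (H2-DMb1 and H2-Eb1), against 0.259%. The shorter GNAAC, which lies inside many matches of the longer core and was chosen after the sequences had been seen, was followed by ATTGG in 5 (H2-Oa, H2-Ob, H2-DMb1, H2-Aa and H2-Eb1), against 3.41%. The ordered pair was thus present in H2-Oa and H2-Ob, which had RNA in T cells, and in H2-Aa and H2-Eb1, which were near background. The upstream H2-DMa window had 73.0% G and C and no ATTGG. It begins inside Brd2, a chromatin reader gene on the other strand, and takes in an annotated Brd2 start. In GENCODE M21 an annotated H2-DMa start lies 232 bases from a Brd2 start, and 3′ counts cannot show which H2-DMa start was used.

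After filtering, 6265 TdLN, 5652 PBMC and 7003 memory cells were kept. Cells with a UMI (a counted RNA molecule) of at least 3 of Cd79a, Cd79b, Ms4a1, Lyz2, C1qa, C1qb and Apoe are called marker-bearing. TdLN held 186 of them, 2.97% (2.56 to 3.42) of kept cells, PBMC 0 (which allows up to 0.0531%) and memory 9. The remaining 6079, 5652 and 6994 cells, called T cells below, had medians of 9738, 7085 and 9958 UMIs, against 3769.5 in the TdLN marker-bearing cells. All 7 T cell markers were detected in the T cells, and their sum was 5727 CPM for TdLN, 5855 CPM for PBMC and 4645 CPM for memory. CPM is the count of a gene divided by all counts of the summed cells and scaled to 1e+06, and intervals in parentheses are 95% and cover counting error only. The 9 B cell genes summed to 235, 102 and 94.9 CPM in the T cells of TdLN, PBMC and memory, led by Ighm. Of these B cell genes Ms4a1 was at 0 in PBMC and memory, and Pax5 and Fcer2a were at 0 in PBMC. The 10 macrophage or monocyte genes summed to 11.6, 9.76 and 4.10 CPM, with C1qa, C1qb, C1qc and Adgre1 at 0 in PBMC and Adgre1 in memory. Of the 11 dendritic cell genes, at 3.91, 17.4 and 17.7 CPM, Flt3, Clec9a, Cd209a and Siglech were at 0 in the T cells of each library. Beta chain V segment UMIs that were not the P14 segment Trbv13-3 made up 10.8% (9.51 to 12.2) in TdLN, 31.3% (29.3 to 33.3) in PBMC and 4.495% (3.96 to 5.08) in memory T cells. Kept cells of TdLN and memory shared 6 barcodes, PBMC and memory 10, and TdLN and PBMC 15, and none of these was a TdLN marker-bearing cell.

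In the TdLN library the class II genes fell into 2 patterns. Among the marker-bearing cells, 75 had more B than myeloid markers (B-type) and 111 did not (myeloid-type). H2-DMa and H2-Oa RNA lay mostly in the T cells, whereas the chains that present peptide, the invariant chain and Ciita lay mostly in the few marker-bearing cells. H2-DMa had 51.0 CPM (49.3 to 52.7) in TdLN T cells, against 286 CPM (256 to 318) in marker-bearing cells, 5.60-fold lower (4.99 to 6.27). H2-Oa had 30.9 CPM (29.6 to 32.3) in T cells, against 139 CPM (119 to 163) in marker-bearing cells, 4.51-fold lower (3.82 to 5.29). H2-Ob, the partner of H2-Oa, had 9.55 CPM (8.83 to 10.3) in T cells and 154 CPM (132 to 178) in marker-bearing cells, 16.1-fold lower. The H2-Oa and H2-Ob differences rested on the B-type cells, which had 262 CPM H2-Oa and 309 CPM H2-Ob. Beside the 111 myeloid-type cells, at 27.8 CPM H2-Oa (16.2 to 44.4) and 13.1 CPM H2-Ob (5.64 to 25.7), T cells stood at 1.12 times their H2-Oa (0.695 to 1.92) and 0.731 times their H2-Ob (0.369 to 1.70). H2-DMa was 2.56-fold lower (2.02 to 3.20) in T cells than in myeloid-type cells, at 131 CPM, and 8.95-fold lower than in B-type cells, at 457 CPM. H2-Aa had 1.71 CPM (1.42 to 2.05) in T cells, against 1538 CPM (1467 to 1610) in marker-bearing cells, 898-fold lower (745 to 1093). The drop was as steep for H2-Ab1, at 1.65 CPM in T cells and 1296 CPM in marker-bearing cells, and for H2-Eb1, at 1.55 and 1305 CPM. Cd74 had 14.2 CPM (13.3 to 15.1) in T cells, against 5544 CPM (5410 to 5680) in marker-bearing cells, 389.9-fold lower. H2-DMb1 and H2-DMb2, near-identical copies between which counting may split reads, were 165-fold and 842-fold lower in T cells, and Ciita 334-fold lower. Of the 10 members, 7 were thus at least 50-fold lower in T cells, against 5.43% of 2726 genes with at least 50 CPM in the marker-bearing cells. Against myeloid-type cells alone 5 members were, since H2-DMb2 was 16.7-fold and Ciita 19.7-fold lower, on 3 counts each in those cells. No share of all genes was computed against myeloid-type cells, where H2-DMb2 and Ciita, at 4.90 CPM each, were under the 50 CPM minimum. The members were chosen with these values known, so the counts are a description.

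The cell split itself stood on a steep step in the same genes. H2-Aa had 0.447 CPM in TdLN cells with 0 markers, 0.280 CPM with 1, 71.9 CPM with 2 and 2126 CPM with 3. H2-DMa had 49.7, 53.9, 60.7 and 346 CPM over the same steps, and H2-Oa 30.4, 32.1, 38.4 and 229.8 CPM. The 88 cells with 2 markers, just outside the rule, therefore stood between the groups in H2-Aa, and near the other T cells in H2-DMa and H2-Oa. An H2-Aa UMI was seen in 5.68% of these 88 cells, so few of them carried that RNA. H2-Ob had 10.1, 7.83, 14.4 and 248 CPM, and Ciita 0.122, 0.336, 3.996 and 121 CPM. Cd79b, which encodes a B cell receptor chain, was the only marker in 76.0% of TdLN cells with 1 marker, and T cells with a Cd79b UMI made up 18.3% in TdLN, 8.51% in PBMC and 4.16% in memory. Ms4a1, another B cell gene, had a UMI in 5 TdLN T cells and in no T cell of PBMC or memory.

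**Figure D1:**
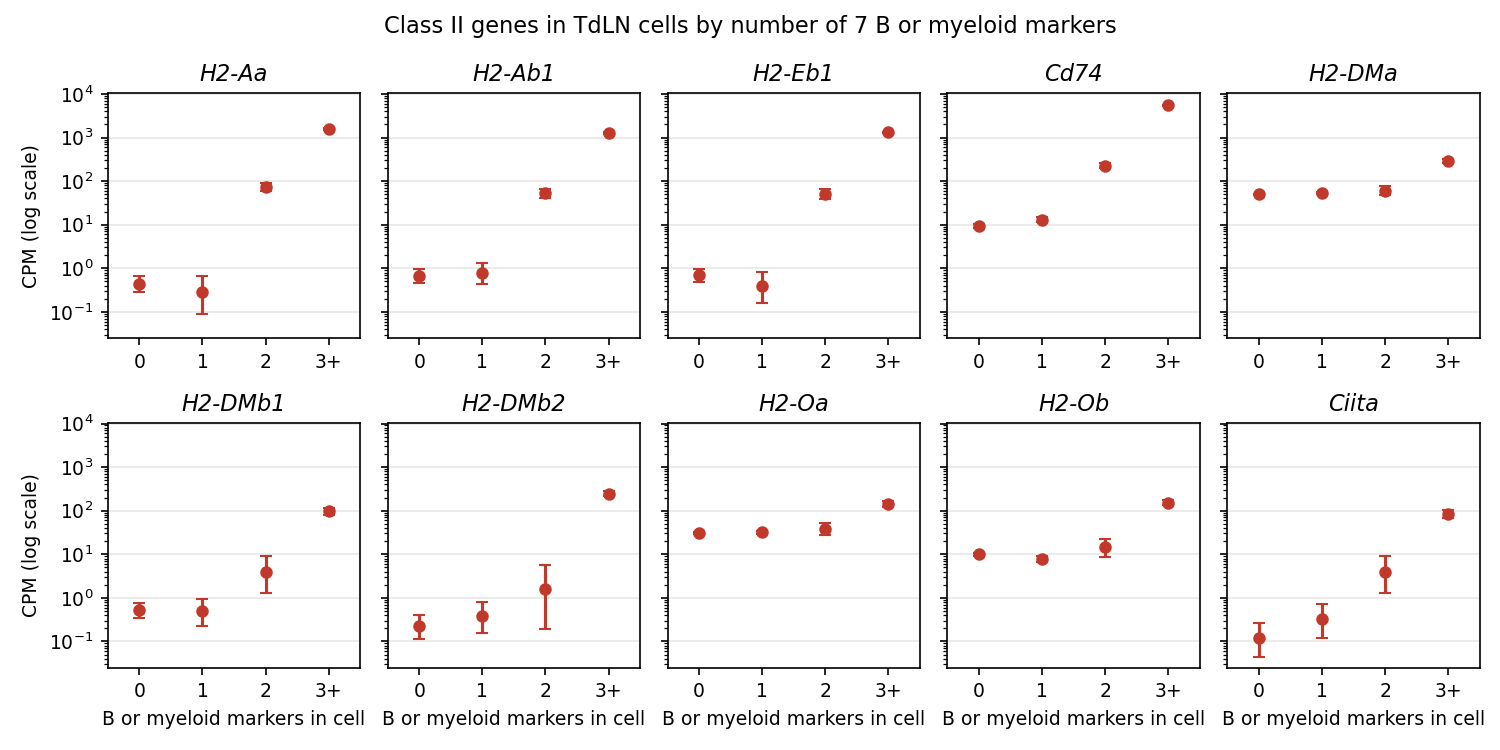
CPM (log scale) of the 10 class II genes in TdLN cells with 0, 1, 2 or at least 3 of the 7 B or myeloid markers; points are summed cells of 1 library and bars 95% Poisson intervals. H2-DMa lies between 49.7 and 60.7 CPM and H2-Oa between 30.4 and 38.4 CPM up to 2 markers, whereas H2-Aa, H2-Ab1, H2-Eb1, Cd74, H2-DMb1, H2-DMb2 and Ciita climb by orders of magnitude.

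The 186 marker-bearing cells held 1.68% of all kept TdLN counts. They held 93.9% (92.7 to 94.9) of H2-Aa counts, 93.1% of H2-Ab1, 93.5% of H2-Eb1, 87.0% of Cd74, 93.5% of H2-DMb2, 85.1% of Ciita and 73.9% of H2-DMb1 counts. Of H2-DMa counts they held 8.74% (7.86 to 9.68), of H2-Oa 7.15% (6.13 to 8.29) and of H2-Ob 21.6% (18.9 to 24.6). The marker-bearing cells also held T cell RNA, with 2252 CPM over the 7 T cell markers, under the 5727 CPM of the T cells, and its part in their H2-DMa and H2-Oa counts was not tested.

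RNA that leaks from one source into all droplets keeps its genes in one ratio, so each gene was set against the summed counts of H2-Aa, H2-Ab1, H2-Eb1 and Cd74. TdLN T cells had 267 H2-DMa counts per 100 of these, against 2.95 in marker-bearing cells, a ratio 90.3-fold higher (79.5 to 103). For H2-Oa the T cells had 162 per 100, against 1.44 in marker-bearing cells, 112-fold higher (94.7 to 134), and for H2-Ob 49.9, against 1.59, 31.4-fold higher (26.3 to 37.6). At the marker-bearing ratio, the T cells' own class II sum of 1308 counts went with 38.6 H2-DMa counts, and 3488 were seen. H2-DMb1 stood at 3.06 times the marker-bearing ratio (2.07 to 4.45), Ciita at 1.52 times (0.846 to 2.56) and H2-DMb2 at 0.601 times (0.360 to 0.950). In T cells with 0 markers the ratio was higher still for H2-DMa, at 152-fold, H2-Oa, at 190.4-fold, and H2-Ob, at 57.1-fold. Leaving out cells with markers lowers the denominator, with H2-Aa going from 117 to 22 counts and Cd74 from 972 to 455. H2-DMa went from 3488 to 2448 counts. The rise is therefore no separate support. Set against myeloid-type cells alone, the H2-DMa ratio was 38.0-fold higher (30.0 to 48.7) and that of H2-Oa 108-fold higher (67.0 to 188), so the size for H2-DMa turned on which cells were taken as source. Against myeloid-type cells H2-DMb1 stood at 0.742 times the ratio, H2-DMb2 at 5.81 times (1.72 to 30.6) and Ciita at 4.94 times (1.42 to 26.4), so the directions of H2-DMb1 and H2-DMb2 turned on the source. A B cell gene also had a high ratio. Ighm had 205 CPM in TdLN T cells, and the highest of the 9 B cell genes in marker-bearing cells, Cd79a, had 1027 CPM. A high ratio to the class II sum therefore cannot by itself tell RNA made by T cells from other RNA. The source of Ighm RNA in T cells was not tested.

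**Figure D2:**
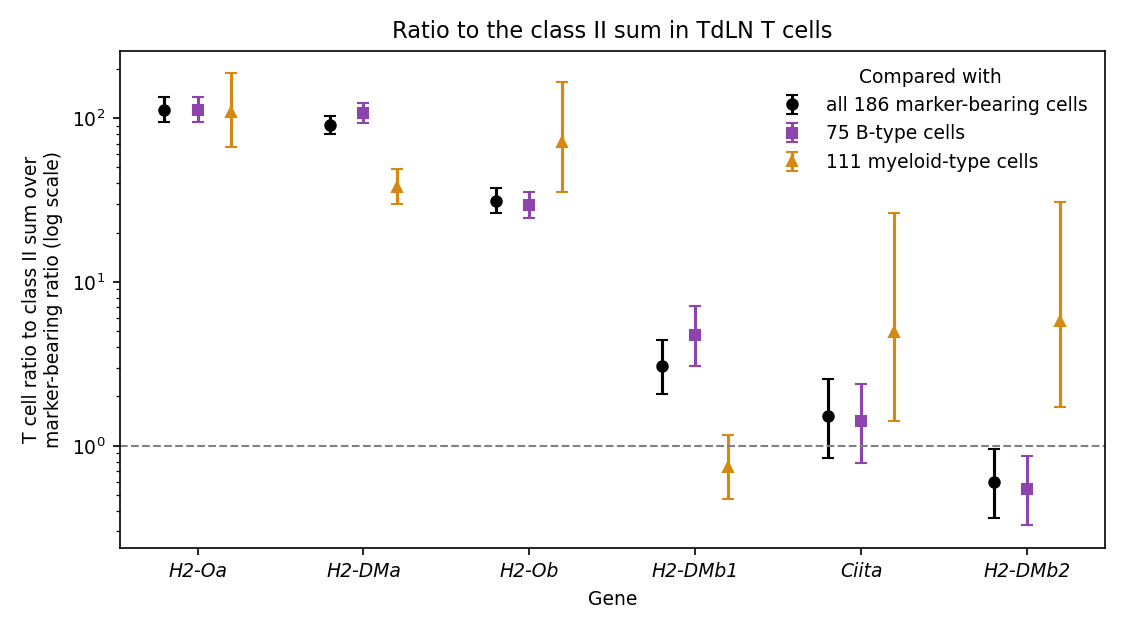
For 6 class II genes, the ratio to the summed counts of H2-Aa, H2-Ab1, H2-Eb1 and Cd74 in TdLN T cells over that ratio in marker-bearing cells (log scale), with all 186, the 75 B-type or the 111 myeloid-type cells as the comparison; bars are 95% intervals and the dashed line is an equal ratio. H2-Oa, H2-DMa and H2-Ob lie 1 to 2 orders of magnitude above the line, at 112, 90.3 and 31.4 against all marker-bearing cells.

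The count ratio of genes for the 2 chains of one molecule differed between T cells and marker-bearing cells. TdLN T cells had 58.1 H2-DMa counts (45.1 to 76.3) per count of H2-DMb1 and H2-DMb2 together, PBMC T cells 70.4 and memory T cells 131, against 0.833 (0.718 to 0.965) in TdLN marker-bearing cells. These ratios rest on 60, 19 and 10 counts of the H2-DMb genes. H2-Oa had 3.24 counts per H2-Ob count (2.97 to 3.54) in TdLN T cells, 1.55 (1.36 to 1.77) in PBMC and 0.505 (0.427 to 0.596) in memory, against 0.906 (0.728 to 1.13) in TdLN marker-bearing cells. The H2-Oa to H2-Ob ratio was thus highest in TdLN T cells and lowest in memory T cells, as a ratio of 3′ counts that says nothing of protein.

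Cd74 differed from the presenting chains. It had 2.89 counts per count of H2-Aa, H2-Ab1 and H2-Eb1 in TdLN T cells (2.55 to 3.28), against 1.34 in marker-bearing cells (1.29 to 1.39), 2.16-fold higher (1.89 to 2.47). In TdLN T cells with 0 markers it was 3.77-fold higher than in marker-bearing cells (2.99 to 4.80). Those cells held 22 of the 117 H2-Aa counts of TdLN T cells, so the denominator fell as well. This denominator was chosen after the values had been seen, and without the 4 TdLN T cells described next the ratio was 5.93 (4.88 to 7.27). A few cells carried much of the class II RNA that remained: 4 TdLN T cells with at least 20 UMIs of these 4 genes held 36.9% of it, and 1 memory cell held 51.7%. Without those cells Cd74 had 10.3 CPM (9.58 to 11.1) in TdLN T cells, 1.59 CPM (1.26 to 1.99) in PBMC T cells and 0.714 CPM (0.530 to 0.941) in memory T cells. H2-Aa then had 0.410, 0.0817 and 0.0571 CPM, H2-Ab1 0.688, 0.490 and 0.0714 CPM, and H2-Eb1 0.644, 0.347 and 0.157 CPM. H2-DMa had 50.6 CPM in the 5610 TdLN T cells without a UMI of these genes, and 59.8 CPM in the 139 with 2 or more. Whether the remaining Cd74 was made by T cells was not tested.

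Over all T cells of a library, H2-DMa and H2-Oa were highest in TdLN and lowest in memory. TdLN cells had 51.0 CPM H2-DMa, PBMC cells 27.3 CPM (25.9 to 28.8) and memory cells 18.7 CPM (17.7 to 19.7). H2-DMa was 2.73-fold higher (2.56 to 2.91) in TdLN than in memory, 1.46-fold higher (1.35 to 1.58) in PBMC than in memory and 1.87-fold higher (1.75 to 1.99) in TdLN than in PBMC. For H2-Oa the levels were 30.9 CPM for TdLN, 12.1 CPM (11.1 to 13.1) for PBMC and 3.08 CPM (2.69 to 3.52) for memory. H2-Oa was 10.04-fold higher (8.72 to 11.6) in TdLN than in memory and 3.91-fold higher (3.34 to 4.60) in PBMC than in memory. H2-Oa intervals were apart in each pair of libraries, and so were those of H2-DMa. H2-Ob had 9.55, 7.78 and 6.11 CPM in TdLN, PBMC and memory, 1.56-fold higher (1.38 to 1.77) in TdLN than in memory and 1.27-fold higher (1.11 to 1.47) in PBMC than in memory. The order of H2-Ob was not stable: its log2 ratio in PBMC over memory was -0.0396 with equal weight per cell, and in TdLN over PBMC 0.014 with a stricter cell filter (more genes and a lower mitochondrial share required), against 0.30 in all T cells. Cd74 was 8.10-fold higher (6.71 to 9.85) in TdLN than in memory, and 14.5-fold higher (10.9 to 19.7) without the 5 cells rich in class II RNA, but PBMC and memory had 1.59 and 1.76 CPM, with intervals that overlap. Without the 1 memory cell rich in class II RNA, Cd74 was 2.23-fold higher (1.54 to 3.25) in PBMC than in memory. TdLN and PBMC are set against one and the same memory library.

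Where the higher of both libraries had 5 CPM or more, 4 members could be compared between TdLN and memory, and 3 of them, H2-Oa, Cd74 and H2-DMa, were at least 2-fold higher, against 5.14% of 8398 genes (2.83% were at least 2-fold lower and 7.98% either). Between PBMC and memory it was 1 of 3, H2-Oa, against 2.43% of genes higher (1.61% lower, 4.04% either). Between TdLN and PBMC it was 2 of 4, Cd74 and H2-Oa, against 3.89% of genes higher (2.54% lower, 6.43% either). The median log2 ratio of the members compared was 2.23, 0.55 and 1.13, and that of all genes 0.13, -0.0030 and 0.14. The members had been chosen on these contrasts. H2-DMb1, H2-DMb2 and Ciita were under 0.6 CPM in T cells of each library, with 3 to 40 counts each, so levels there say little at this depth.

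**Figure D3:**
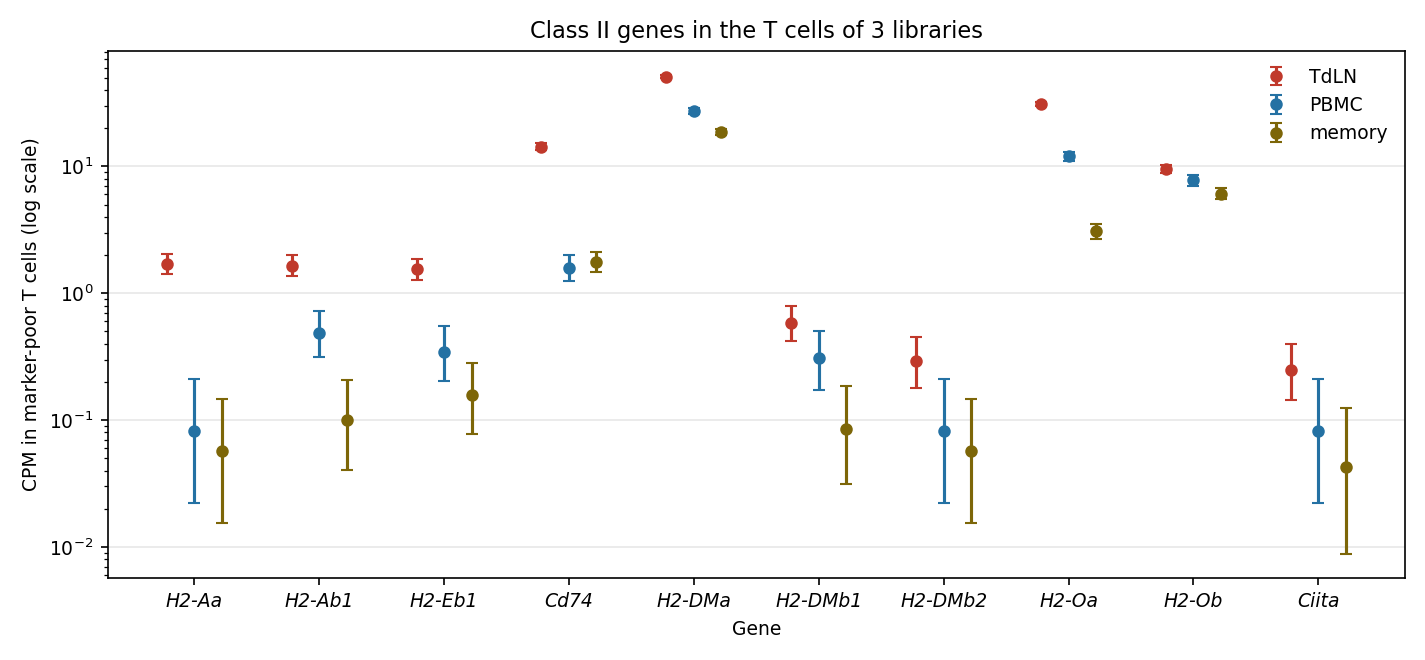
CPM (log scale) of the class II genes in T cells of TdLN, PBMC and memory; points are summed cells of 1 library each and bars 95% Poisson intervals. H2-DMa, H2-Oa and H2-Ob step down from TdLN over PBMC to memory, and H2-Aa, H2-Ab1, H2-Eb1, H2-DMb1, H2-DMb2 and Ciita stay under 2 CPM in each library.

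Shares of cells were read after each cell had been thinned to 4200 UMIs, which left out 95 TdLN, 504 PBMC and 271 memory T cells. The share of T cells with an H2-DMa UMI was then 18.9% (17.9 to 19.9) in TdLN, 8.53% (7.78 to 9.32) in PBMC and 7.54% in memory, against 40.3%, 17.96% and 16.6% before thinning. An H2-Oa UMI was seen in 11.6% (10.8 to 12.4), 3.07% (2.62 to 3.58) and 1.26%, and before thinning in 24.99%, 9.01% and 2.86%. In the same thinned TdLN T cells the genes of B or myeloid cells were seen at shares that differed widely. A UMI was seen in 0.167% of cells for H2-Aa, 0.351% for H2-Ab1, 0.318% for H2-Eb1, 0.752% for Lyz2, 1.72% for Apoe and 2.77% for Cd74, and in 8.32% for Cd79b. H2-DMa and H2-Oa lay above each of these, with every cell at 4200 UMIs. Of the 83 thinned marker-bearing cells 65.1% had an H2-Aa UMI. In thinned TdLN T cells H2-DMa was seen in 21.1% (18.1 to 24.3) of cells with H2-Oa, against 18.6% (17.5 to 19.6) of cells without it, with intervals that overlap. In PBMC it was seen in 20.9% (14.8 to 28.1) of cells with H2-Oa, against 8.14% (7.39 to 8.93) of cells without it. In memory only 85 thinned cells had H2-Oa, and 4 of them had H2-DMa.

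T cells were then divided into states by detected genes, taking the first match of cycling, interferon, effector, Izumo1r and Tcf7 Ccr7, and other for the rest. These states are cuts on UMIs and not cell types. The Izumo1r state, with at least 2 of Izumo1r, Ikzf2, Ctla4 and Myb, had the highest H2-Oa and H2-DMa of the states measured in TdLN and in PBMC, although its PBMC H2-DMa interval (31.7 to 55.1) overlapped that of the Tcf7 Ccr7 state (36.0 to 41.2). In TdLN its 504 cells had 63.6 CPM H2-Oa (57.3 to 70.3), against 27.8 CPM in the other T cells, 2.28-fold higher (2.04 to 2.55). Its 115 PBMC cells had 35.9 CPM (26.3 to 47.9), against 11.4 CPM, 3.15-fold higher (2.28 to 4.26). H2-DMa in this state was 1.28-fold higher (1.15 to 1.42) than in other TdLN T cells, and 1.57-fold higher (1.17 to 2.06) than in other PBMC T cells. H2-Ob had 24.2 CPM (16.5 to 34.4) in the Izumo1r state of PBMC and 11.4 CPM (8.86 to 14.5) in that of TdLN.

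The effector state, with at least 3 of Gzma, Gzmb, Cx3cr1, Klrg1, Zeb2, S1pr5 and Klre1, held 43.5% of PBMC T cells and was low in all 3 genes. H2-DMa had 10.3 CPM (8.69 to 12.1) there, against 34.3 CPM in the other PBMC T cells, 3.34-fold lower (2.81 to 3.99). H2-Oa had 2.31 CPM (1.59 to 3.24), against 16.1 CPM, 6.97-fold lower (4.90 to 10.2). H2-Ob had 1.12 CPM (0.640 to 1.82), against 10.52 CPM. Depth and receptor segments moved with this state: its median was 5184 UMIs, against 11357.5 in the other PBMC T cells, and 65.7% (61.7 to 69.6) of its beta segment UMIs were not Trbv13-3, against 18.6% (16.7 to 20.6). Their part in the difference was not tested. With Trbv13-3 as their sole beta segment, PBMC cells had H2-DMa at 39.8 CPM and H2-Oa at 17.3 CPM, against 16.8 and 6.71 CPM in cells with other segments alone. The same split in TdLN gave 49.2 and 33.1 CPM, against 44.0 and 34.5 CPM. For memory it gave 18.8 and 3.30 CPM, against 16.9 and 3.21 CPM. Intervals overlapped in both TdLN and memory. The 192 effector-state cells of memory, of which 7.92% of beta segment UMIs were not Trbv13-3, had 20.8 CPM H2-DMa (14.4 to 29.1), against 18.6 CPM in other memory T cells. They had 0.612 CPM H2-Oa, against 3.14 CPM, and 2.45 CPM H2-Ob, against 6.20 CPM, on 1 and 4 counts. In cycling TdLN cells, at a median of 26141.5 UMIs, H2-DMa had 38.3 CPM, against 53.1 CPM in the other TdLN T cells, and H2-Ob 3.22 CPM (2.19 to 4.56), against 10.6 CPM.

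The library order depended on the state for H2-DMa and H2-Ob. In the effector state H2-DMa had 10.3 CPM in PBMC, against 20.8 CPM in memory, 2.02-fold lower, and the ratio was 0.494 (0.339 to 0.741). In the cells of no named state it had 20.7 CPM in PBMC, against 18.5 CPM in memory, a ratio of 1.12 (0.937 to 1.33) that was not apart from 1. H2-Ob in the Izumo1r state was 2.12-fold lower in TdLN than in PBMC, at a ratio of 0.471 (0.304 to 0.745). Within the Tcf7 Ccr7 state, cells with a UMI of both genes and outside the earlier states, the order was TdLN, PBMC, memory for H2-DMa and H2-Oa. H2-DMa there had 54.5, 38.5 and 18.8 CPM in TdLN, PBMC and memory cells. It was 2.91-fold higher (2.63 to 3.22) in TdLN and 2.05-fold higher (1.84 to 2.30) in PBMC than in memory. H2-Oa had 28.1, 17.4 and 3.74 CPM, 7.51-fold higher (6.09 to 9.34) in TdLN and 4.66-fold higher (3.73 to 5.87) in PBMC than in memory. H2-Ob had 10.2 CPM (9.17 to 11.4) in TdLN and 11.7 CPM (10.4 to 13.2) in PBMC, with intervals that overlap, and 6.10 CPM (5.19 to 7.13) in memory. Cd74 had 7.53 CPM in this state of TdLN, under its 27.3 CPM (23.4 to 31.6) in the interferon state and 22.6 CPM (19.0 to 26.8) in the Izumo1r state. In PBMC and memory Cd74 was under 5 CPM in each state measured.

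**Figure D4:**
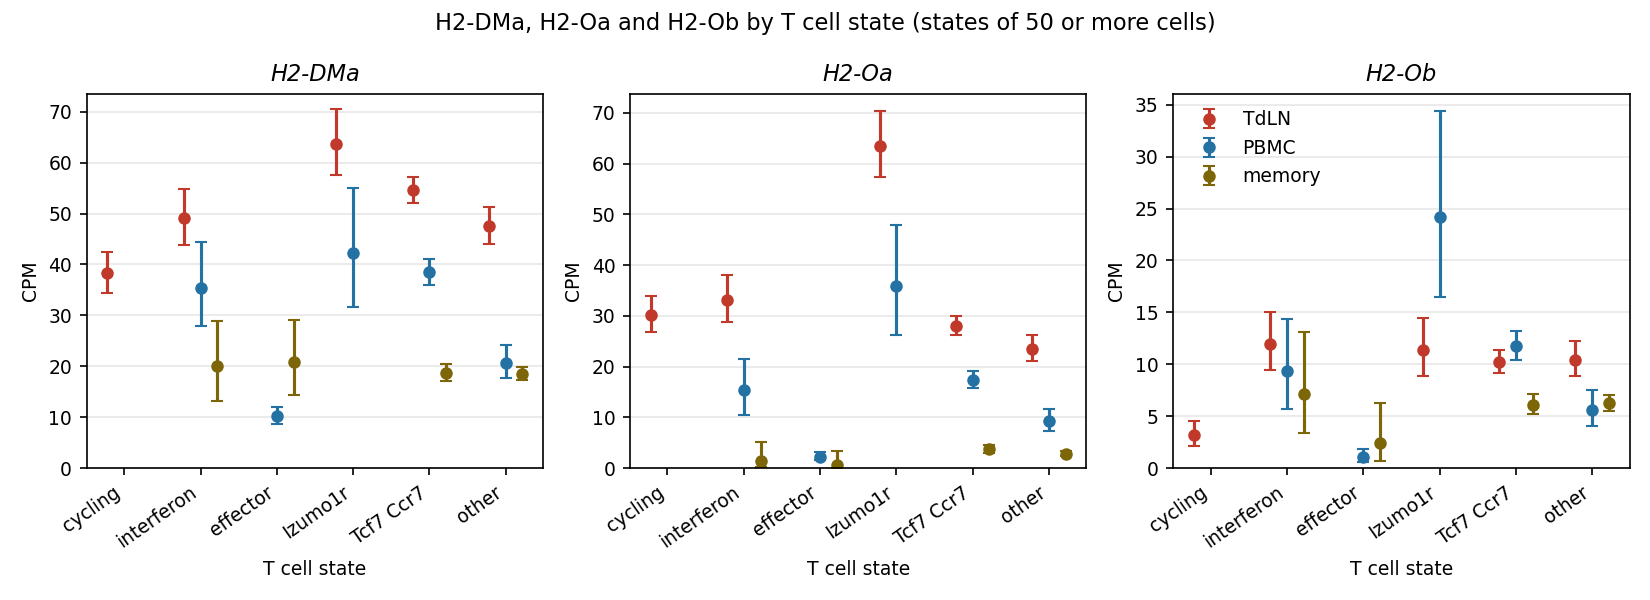
CPM of H2-DMa, H2-Oa and H2-Ob in T cell states of at least 50 cells in TdLN, PBMC and memory; points are summed cells and bars 95% Poisson intervals. The Izumo1r state is highest for H2-DMa and H2-Oa, with 63.7 and 63.6 CPM in TdLN, and the PBMC effector state is low in the 3 genes.

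Across 14 library-by-state groups, the genes with the pattern of log2(CPM + 1) most like H2-DMa among 7528 genes were Ralgps2 (Pearson r 0.965), Eif3e, a translation initiation factor subunit (0.958), and St8sia1, a ganglioside sialyltransferase (0.953). For H2-Oa they were St6gal1, a sialyltransferase (0.980), Kcna2, a potassium channel subunit (0.977), and Dapl1 (0.973). H2-DMa and H2-Oa had r 0.887 with each other. Brd2, which overlaps H2-DMa on the other strand over 3094 bases, had r -0.867 with H2-DMa, and -0.936 with H2-Oa, which it does not overlap. The groups share 3 libraries and their depths, so these values describe the order of the groups and carry no test.

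The class II region gave a reference for H2-DMa and H2-Oa. On chromosome 17 (GRCm38, GENCODE M21) H2-Oa spans 34092340 to 34095234, Brd2 34112023 to 34122634, H2-DMa 34119541 to 34139101, H2-DMb2 34143307 to 34151555, H2-DMb1 34153072 to 34160230 and H2-Ob 34238903 to 34254414. H2-Ab1 (34257689 to 34269419), H2-Aa (34282744 to 34287823) and H2-Eb1 (34305867 to 34316674) follow. Ciita is on chromosome 16 (10480059 to 10528418) and Cd74 on chromosome 18 (60803848 to 60812652). In TdLN the neighbours Psmb8 and Psmb9, immunoproteasome subunits, had 621 and 221 CPM in T cells, against 560.4 and 221 CPM in marker-bearing cells. The peptide transporter genes Tap1 and Tap2 had 107 and 97.4 CPM in T cells, against 155 and 89.8 CPM. These neighbours, which serve class I presentation, lie between H2-DMb1 and H2-Ob, and their T cell levels were 0.694-fold to 1.11-fold those of marker-bearing cells. None of the 6 neighbours measured of the 7 listed was 2-fold apart in T cells between any pair of libraries. Only 4.04% to 7.98% of all genes were, depending on the pair, at the 5 CPM minimum. Such a count is thus usual for 6 genes and does not set the neighbours apart from most genes. Brd2 had 67.2, 77.5 and 82.4 CPM in T cells of TdLN, PBMC and memory, the reverse of the order of H2-DMa. H2-Oa lies whole inside BC051537, an antisense gene on the other strand, which had 27 counts in TdLN T cells, where H2-Oa had 2116. The use of strand in counting is not given in the sources used here.

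**Figure D5:**
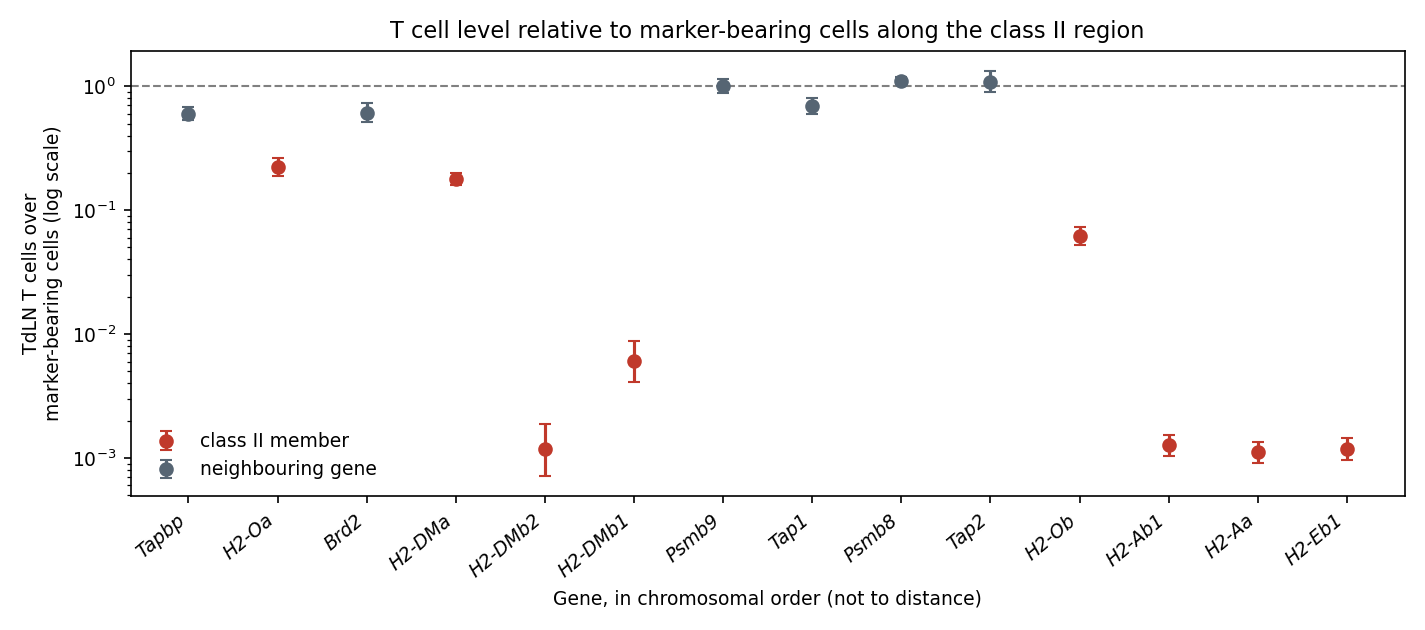
Level in TdLN T cells over TdLN marker-bearing cells (log scale) for class II members and neighbouring genes of chromosome 17 in gene order; bars are 95% intervals and the dashed line is an equal level. The neighbours lie between 0.599 and 1.11, H2-Oa and H2-DMa at 0.222 and 0.179, H2-Ob at 0.0620, and the remaining 5 class II genes under 0.01.

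Among 17 analysed of 18 listed partners of the class II pathway, the 7 DNA-binding or RFX-complex genes stood at 0.328 to 1.39 times their marker-bearing level in TdLN T cells, and Ciita was 334-fold lower. Rfxap, an RFX subunit, had 36.8 CPM in TdLN T cells, against 26.5 CPM in marker-bearing cells, and Rfx5, another subunit, 5.62 CPM, against 17.1 CPM. Nfyb, an NF-Y subunit, had 35.1 CPM, against 35.9 CPM, and Creb1, which binds beside the X box, 51.3 CPM, against 62.5 CPM. Ciita had 0.249 CPM (0.145 to 0.398) in TdLN T cells, against 83.0 CPM in marker-bearing cells. Proteases that cut the invariant chain or antigen were lower in T cells: Ctss had 139 CPM, against 1001 CPM, and Lgmn 0.453 CPM, against 271 CPM. Between libraries, 1 of 12 partners compared was at least 2-fold higher in TdLN than in memory T cells and none at least 2-fold lower, with a median log2 ratio of 0.39, against 5.14% of all genes higher and 2.83% lower, so 1 of 12 is near the share of all genes. It was Cd86, a costimulatory ligand, with 14.04 CPM in TdLN T cells, against 0.956 CPM in memory T cells, 14.7-fold higher (11.5 to 19.1). Cd86 had 12.2 CPM in PBMC and was the 1 of 11 partners at least 2-fold higher there than in memory, against 2.43% of all genes. In TdLN cells with 0 markers Cd86 had 14.3 CPM, against 116 CPM in marker-bearing cells.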

How the data were processed

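Droplet-based 3′ single-cell libraries (10x Genomics Chromium Next GEM) were made from sorted cells, per the labels' protocols. The deposited tables give raw UMI counts for each gene in each barcode. The submitters' processing notes name Cell Ranger 3.1.0 and mm10. The files held 7503 TdLN, 6165 PBMC and 8321 memory barcodes with 72062695, 49592338 and 72283532 counts. Of 31053 gene IDs, 30934 were found in GENCODE M21.

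A cell was kept with 500 or more detected genes and no more than 10% of counts from mitochondrial genes. No doublet caller was run, so doublets were not removed. Counts were summed per library and cell set. CPM has exact Poisson, ratios exact conditional binomial and shares Clopper-Pearson 95% intervals (scipy 1.17.1). A count of 0 allows up to 3 counts. UMIs are single molecules, but cells of 1 library are not replicates, so no p-value is given. Ratio calculations were tested on counts simulated at known folds.

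Members, lists, states and tests were chosen with earlier results of these data known. Named genes are the members, 18 pathway partners, 7 region neighbours, the 7 markers and the 3 genes most like H2-DMa and H2-Oa. Ifi30 and Tesb were not analysed here. Antisense genes, beta segments, cells rich in class II RNA and the 50-fold count were added after values were seen. Alternatives changed the marker number, T cell set, cell filter, scaling (edgeR 4.0.16 TMM), cell weighting and depth.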

Additional observations from a re-analysis of the deposited data

How the results depend on the processing

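No paired analysis was possible because each group had 1 library. H2-DMa and H2-Oa stayed higher in TdLN than in PBMC and in PBMC than in memory under the settings listed here, but H2-DMa was lower in PBMC than in memory within the effector state (ratio 0.494). As log2 ratios, TMM scaling gave 1.32 (main 1.45) for H2-DMa in TdLN over memory and 0.79 (main 0.90) in TdLN over PBMC, and moved the median of all genes from 0.13 to 0.00 (0.0021) and from 0.14 to 0.02. In PBMC over memory, H2-DMa (main 0.55) was 0.25 (0.253) with equal weight per cell, 0.24 (0.245) thinned, 1.04 in the Tcf7 Ccr7 state, 0.88 without the effector state and 1.08 in cells with Trbv13-3 as the only beta segment. The same settings gave 1.27, 1.21, 0.50, 0.57 and 0.30 for H2-DMa in TdLN over PBMC, 1.67, 1.29, 2.22, 2.36 and 2.39 for H2-Oa in PBMC over memory (main 1.97) and 1.73, 1.9998, 0.69, 0.95 and 0.93 for H2-Oa in TdLN over PBMC (main 1.36). H2-Oa in TdLN over memory was 2.91 in the Tcf7 Ccr7 state (main 3.33), and in PBMC over memory 1.72 with the stricter cell filter. H2-Ob in PBMC over memory turned to -0.0396 with equal weight per cell (main 0.35). The last 3 of the 5 settings were chosen after seeing the data. The causes were not tested. Genes at least 2-fold apart numbered 670 between TdLN and memory, 331 between PBMC and memory and 534 between TdLN and PBMC at the 5 CPM minimum, but 273, 103 and 212 with 20 CPM as the minimum and 1335, 879 and 1086 with 1 CPM. In PBMC over memory there were 521 with totals free of ribosomal and mitochondrial genes. TMM moved the share of higher calls from 64.5% to 54.0% in TdLN over memory and from 60.5% to 50.6% in TdLN over PBMC.

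The ratio of H2-DMa to the class II sum, T cells over marker-bearing cells, was 122-fold with 2 markers as the limit, 39.5-fold with 1, 119-fold in T cells with Cd3 and Cd8 UMIs, 340.2-fold with at most 1 class II UMI (which lowers the denominator by construction), 53.7-fold with the stricter filter, 107-fold against B-type and 38.0-fold against myeloid-type cells. For H2-Oa the first 5 were 144-fold, 42.3-fold, 148-fold, 420.3-fold and 75.1-fold. With 2 markers, 1 marker and the stricter filter, marker-bearing cells were 4.37%, 26.2% and 2.55% of TdLN cells and held 10.7%, 35.9% and 4.38% of H2-DMa, 9.26%, 34.4% and 3.17% of H2-Oa and 93.6%, 95.7% and 71.1% of the class II sum. Depth limits H2-DMb1, H2-DMb2 and Ciita in T cells, at 3 to 40 counts a library.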
